A study of Mus musculus with 12 samples.

Results

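Cxcl1, Cxcl2, Cxcl3 and Cxcl5 encode the mouse CXC chemokines best known for drawing neutrophils into tissue, and they were 4 of the 23744 genes that could be tested in this study of the colon. Each gene was represented by the array probe whose RefSeq symbol was one of these 4 names, which gave 1 probe a gene, and all 4 passed the filter on dim probes. The RNA came from mucosa scraped off the colons of C57BL/6 bone marrow chimeras, and each mouse was measured on 1 single-colour array. There were 4 groups of 3 mice: Muc1 KO donor marrow with AOM+DSS treatment, WT donor marrow with AOM+DSS treatment, Muc1 KO donor marrow left untreated, and WT donor marrow left untreated. All recipients were WT, so Muc1, a membrane mucin, was missing only from cells of donor origin. Treated mice received AOM (azoxymethane), a colon carcinogen, at 12.5 mg/kg, followed by repeated cycles of DSS (dextran sodium sulfate), which injures the colon epithelium, in the drinking water. The last cycle was 2.5% DSS for 5 days, and tissue was taken 1 day after it, so the samples came from acutely injured mucosa in a model of colitis-associated cancer. The labels do not say how completely donor cells had replaced those of the host.

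These chemokines carry a glutamate-leucine-arginine (ELR) sequence ahead of their first cysteines and act through the receptor Cxcr2 on neutrophils. Epithelial cells, fibroblasts, macrophages and neutrophils themselves can make them. Interleukin-1, tumour necrosis factor and interleukin-17 switch the genes on, in large part through the transcription factor NF-kappaB, and the short-lived transcripts are then limited by RNA-binding proteins. In the colon they are known for their part in the neutrophil influx of acute colitis.

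The promoter sequences are shown because all 4 genes rose with treatment, as given below, and the 3 promoters in the table share a motif. RefSeq promoters (GRCm38.p6) of 3 of the 4 genes matched by symbol: Cxcl1, Cxcl2 and Cxcl3, all on the plus strand of chromosome 5. The 150 bases that end just before each gene's start are printed 5′ to 3′, with the 9 letters GGAATTTCC, a core NF-kappaB motif, in capitals. The Cxcl1 stretch is chr5:90891095-90891244, the Cxcl2 stretch is chr5:90903749-90903898 and the Cxcl3 stretch is chr5:90785951-90786100.
Cxcl1: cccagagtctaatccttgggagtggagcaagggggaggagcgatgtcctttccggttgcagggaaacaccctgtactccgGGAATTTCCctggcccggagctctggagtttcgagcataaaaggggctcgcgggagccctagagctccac
Cxcl2: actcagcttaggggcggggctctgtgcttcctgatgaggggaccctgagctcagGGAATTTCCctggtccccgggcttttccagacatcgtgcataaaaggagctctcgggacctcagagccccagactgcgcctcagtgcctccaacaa
Cxcl3: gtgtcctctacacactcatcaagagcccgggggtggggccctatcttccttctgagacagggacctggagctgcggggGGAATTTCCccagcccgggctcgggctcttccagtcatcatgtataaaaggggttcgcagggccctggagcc

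GGAATTTCC was searched on both strands of 300 bases (250 before to 50 after the start). It began at position -70 of Cxcl1, -96 of Cxcl2 and -72 of Cxcl3, counted back from the start. Of the 32851 mouse promoters of the table, 104 (0.317%) held it. The longest run common to all 3 stretches before the start was the 11 letters GGGAATTTCCC around the same place, and Cxcl1 and Cxcl2 shared the 14 letters GGGAATTTCCCTGG there. The general NF-kappaB consensus overlapped the motif in all 3 genes and was present in 8.46% of all promoters. The TATA box letters TATAAA were found in Cxcl3, at position -30, and in 13.6% of all promoters. The AP-1 motif TGANTCA was in none of the 3 windows and in 7.81% of all promoters. These matches describe letters only, and binding was not measured.

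The 12 arrays lay on 3 slides, and this layout bears on every comparison between treated and untreated mice. Slide 1 held the 3 untreated WT marrow mice and untreated KO marrow mouse 1, and slide 3 held treated mice 1 and 2 of both marrow types. Slide 2 held treated mouse 3 of both marrow types and untreated KO marrow mice 2 and 3. Slide 3, which held treated mice only, was scanned on a different day from slides 1 and 2. Its arrays had 496 to 781 spots marked as non-uniform, against 4 to 52 on the arrays of slides 1 and 2. One array, that of treated WT marrow mouse 3, was dimmer than the rest, with a 75th percentile of 153.2 intensity units against 332 to 767.8 on the other 11. Between 58.05% and 78.26% of probes were well above background on those 11 arrays and 64.1% on the dim one. All values below are log2 signals relative to the 75th percentile of their own array, so that 0 is that percentile. They compare arrays for 1 probe, not probes with each other. Whether the mice of a group came from separate litters or cages is not given, and p-values measure the spread between these mice.

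Muc1 itself was well above background in all 12 mice. It averaged -1.90 ± 0.79 in treated KO marrow mice and -2.39 ± 1.04 in treated WT marrow mice, and -2.94 ± 0.84 in untreated KO marrow mice and -1.82 ± 0.38 in untreated WT marrow mice (SD, n = 3 each). Because the WT recipients' own cells make Muc1, and the position of the probe relative to the deletion is not given, these values do not check the donor genotype.

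All 4 chemokine genes rose with AOM and DSS, in mice with either marrow. In every treated mouse each of the 4 probes was well above background. In untreated mice Cxcl2 and Cxcl3 were not well above background on any of the 6 arrays, while Cxcl1 was on 4 of 6 and Cxcl5 on 5 of 6. For none of the 4 genes did any treated mouse overlap any untreated mouse, a separation that 4.11% of genes showed.

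**Figure D1:**
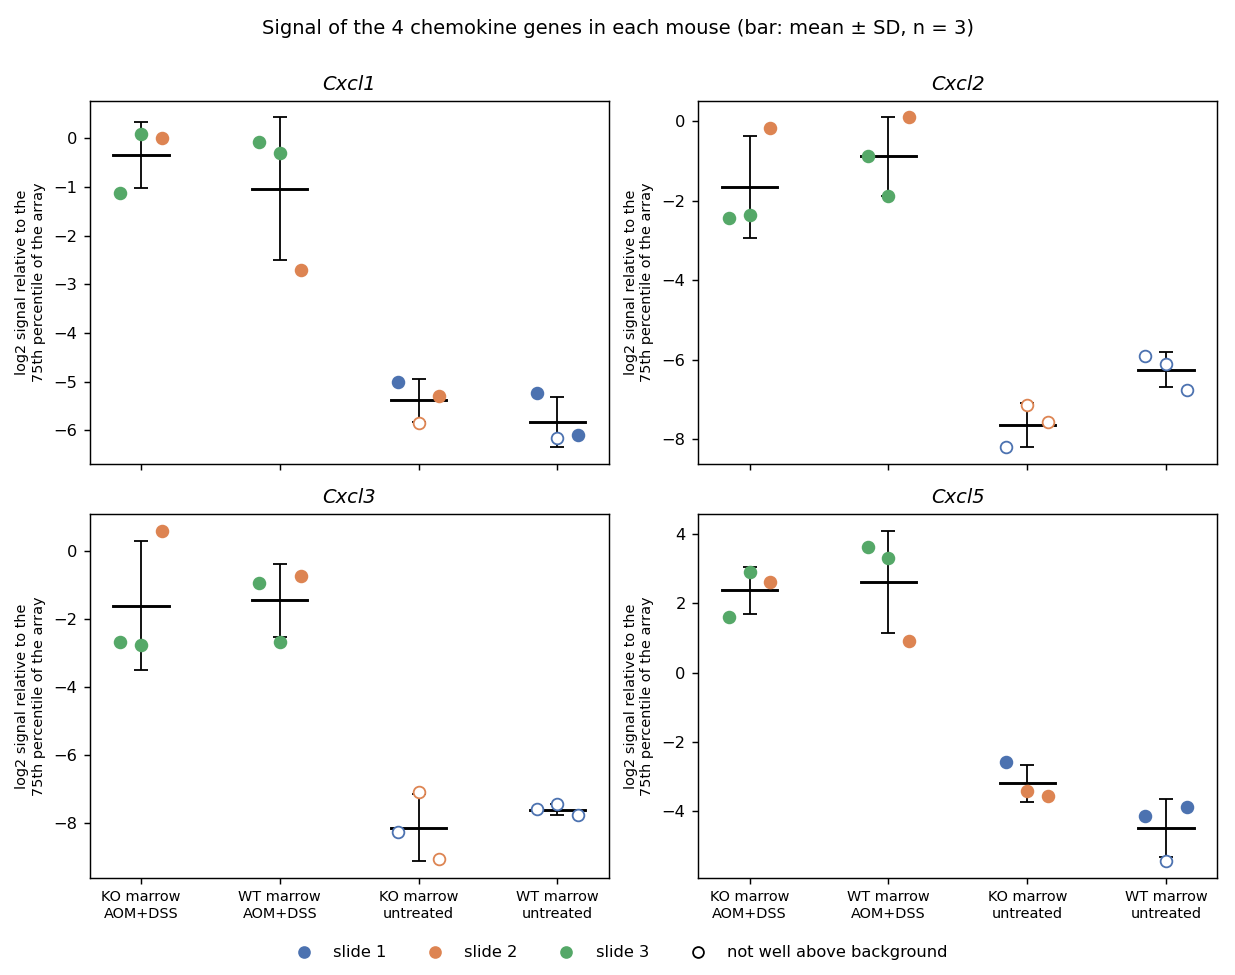
Signal of Cxcl1, Cxcl2, Cxcl3 and Cxcl5 in each mouse, as log2 signal relative to the 75th percentile of the array (vertical axis of each panel), in the 4 groups. Points are mice coloured by slide, open points were not well above background, and bars are the mean ± SD of 3 mice. All treated points lie above all untreated points in each panel.

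Cxcl1, long called KC in the mouse, measured -1.12, 0.09 and 0.00 in treated KO marrow mice 1 to 3, against -5.00, -5.85 and -5.29 in untreated KO marrow mice. With WT marrow it measured -0.07, -0.29 and -2.71 in treated mice, against -5.23, -6.16 and -6.09 in untreated mice. The lowest treated value was that of the dim array, treated WT marrow mouse 3, and it still lay 2.51 above the highest untreated WT marrow mouse. The difference was 5.04 ± 0.66 (SE), or 32.9-fold, with KO marrow (limma adjusted p = 0.00147). With WT marrow it was 4.80 ± 0.66, or 27.9-fold (limma adjusted p = 0.00273).

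Cxcl5, known as LIX in the mouse and made largely by epithelial cells, measured 1.61, 2.91 and 2.62 in treated KO marrow mice, against -2.59, -3.41 and -3.57 in untreated KO marrow mice. WT marrow mice had 3.62, 3.30 and 0.91 when treated, against -4.13, -5.44 and -3.87 when untreated. Treated mice thus stood above the 75th percentile of their arrays, and untreated mice far below it. The dim array was again the lowest treated value. The difference was 5.57 ± 0.66, or 47.6-fold, with KO marrow (limma adjusted p = 0.000725) and 7.09 ± 0.66, or 136-fold, with WT marrow (limma adjusted p = 0.00023).

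Cxcl2, also called MIP-2, is an early product of activated macrophages and neutrophils. It measured -2.44, -2.37 and -0.17 in treated KO marrow mice, against -8.21, -7.13 and -7.57 in untreated KO marrow mice. With WT marrow it measured -0.88, -1.89 and 0.09 in treated mice, against -5.91, -6.12 and -6.76 in untreated mice. Here mouse 3 was the highest treated mouse of each marrow type, the dim array included. Since no untreated array measured the gene above background, the rise is an approximate bound: at least 19.6-fold with KO marrow (fitted difference 5.98 ± 0.70, limma adjusted p = 0.000725) and at least 28.7-fold with WT marrow (5.37 ± 0.70, limma adjusted p = 0.00191). Such a bound sets the mean of the treated mice against the lowest signal that counted as well above background on each untreated array, or the probe's own signal where that was higher. All such bounds are approximate, because that limit differed between probes. In untreated KO marrow mouse 2 the lowest such signal was -4.90, yet Epgn at -4.66 did not count as well above background.

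Cxcl3, a close relative of Cxcl2, measured -2.66, -2.75 and 0.60 in treated KO marrow mice, against -8.26, -7.09 and -9.07 in untreated KO marrow mice. In WT marrow mice the values were -0.95, -2.68 and -0.73 with treatment, against -7.59, -7.45 and -7.78 without. Treated mouse 3 was again the highest of its group with either marrow. The rise was at least 20.3-fold with KO marrow (fitted difference 6.53 ± 0.89, limma adjusted p = 0.00181) and at least 19.4-fold with WT marrow (6.15 ± 0.89, limma adjusted p = 0.00368).

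All 4 genes passed the threshold of adjusted p under 0.05 as higher with KO marrow, where 1.85% of the 23744 genes did, and all 4 did so with WT marrow, where 3.61% did. Groups without overlap and with treated mice higher were found for 10.9% of genes with KO marrow and 10.7% with WT marrow. The median change over all genes was -0.11 with KO marrow and -0.24 with WT marrow. Averaged over both marrow types, the differences were 4.92 ± 0.47 for Cxcl1, 5.67 ± 0.49 for Cxcl2, 6.34 ± 0.63 for Cxcl3 and 6.33 ± 0.46 for Cxcl5. In that average 7.56% of genes were called higher, and the 4 limma adjusted p-values were 4.74e-05, 3.02e-05, 5.6e-05 and 1e-05 in the same order.

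Slide and treatment were partly confounded, so the changes were also fitted with slide as a block. With KO marrow the differences became 4.56 for Cxcl1, 6.92 for Cxcl2, 7.93 for Cxcl3 and 5.14 for Cxcl5, and all 4 passed (limma adjusted p = 0.00806, 0.000188, 0.000854 and 0.00433). With WT marrow they became 4.70, 5.74, 7.44 and 7.27 in the same order. There Cxcl1 no longer passed (limma adjusted p = 0.0942), while Cxcl2, Cxcl3 and Cxcl5 did (0.016, 0.0266 and 0.0202). No slide held both treated and untreated WT marrow mice, so that fit ties the groups together through KO marrow mice. Within slide 2 alone, 1 treated KO marrow mouse exceeded 2 untreated ones by 5.58 for Cxcl1, 7.18 for Cxcl2, 8.68 for Cxcl3 and 6.12 for Cxcl5. Without the dim array the WT marrow differences were 5.64 for Cxcl1, 4.88 for Cxcl2, 5.79 for Cxcl3 and 7.94 for Cxcl5, and all 4 passed. That moved Cxcl1 and Cxcl5 upwards by over 1.5 times in fold. Leaving out treated KO marrow mouse 3, the highest for Cxcl2 and Cxcl3, lowered the KO marrow differences to 5.23 for Cxcl2 and 5.43 for Cxcl3. Leaving out treated WT marrow mouse 2 raised the WT marrow difference of Cxcl3 to 6.77. All of these passed, and no other mouse moved a treatment difference of the 4 genes within 1 marrow type by over 1.5 times.

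**Figure D2:**
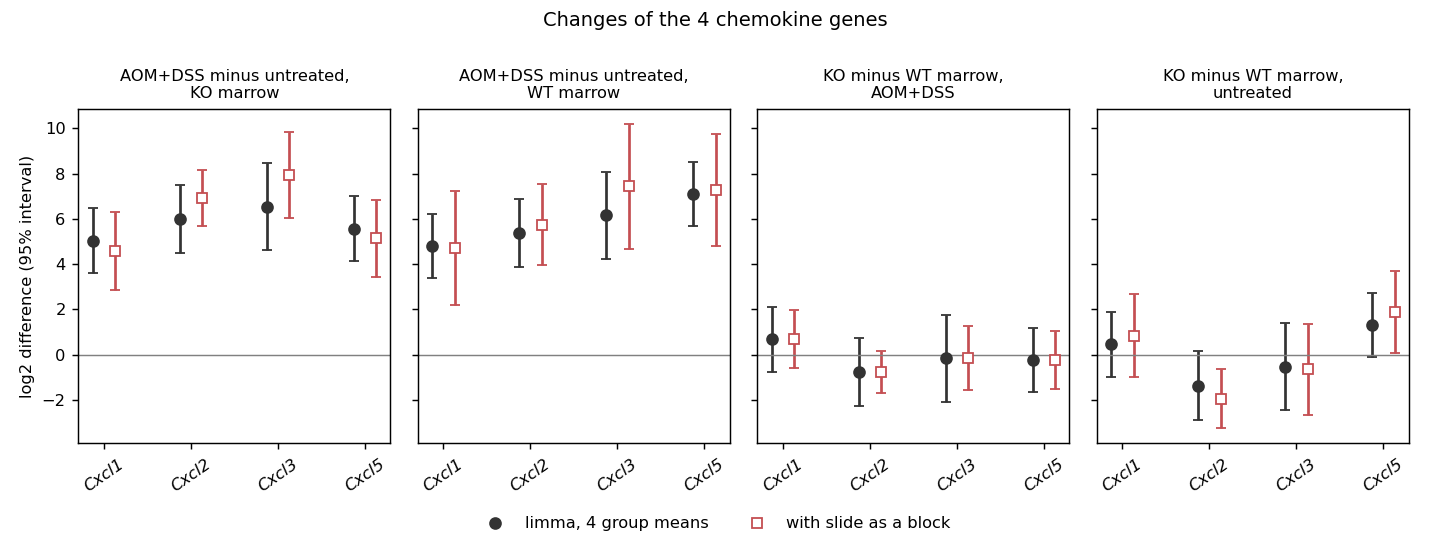
Differences in log2 signal with 95% intervals (vertical axis) for the 4 genes, from the limma fit of 4 group means (filled circles) and from the fit with slide as a block (open squares). All intervals of the treatment comparisons in the left panels lie above 0, and those of the treated KO and WT marrow mice span 0 for all 4 genes.

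Muc1 in donor-derived cells was the other question of the design, and none of the 4 chemokines differed by it past the threshold. In treated mice the KO minus WT marrow difference was 0.68 for Cxcl1 (95% interval -0.75 to 2.11), -0.77 for Cxcl2 (-2.28 to 0.74), -0.15 for Cxcl3 (-2.08 to 1.77) and -0.23 for Cxcl5 (-1.65 to 1.19). The groups overlapped for all 4 genes, and the 4 limma adjusted p-values were 1. The intervals leave room for changes of several fold in either direction for Cxcl3, and do not show that the marrow types were alike. Of all genes 0% passed in this comparison, with 231 at an unadjusted p under 0.05. Signs also turned between slides: Cxcl1 was higher with KO marrow by 2.72 within slide 2, where 1 mouse stood against 1, and -0.33 within slide 3, where 2 stood against 2. Cxcl5 gave 1.72 and -1.20, Cxcl3 gave 1.33 and -0.89, and Cxcl2 gave -0.27 and -1.02 in the same order. Without the dim array the differences were -0.16 for Cxcl1, -0.27 for Cxcl2, 0.21 for Cxcl3 and -1.08 for Cxcl5.

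In untreated mice Cxcl5 was 1.29 ± 0.66 higher with KO marrow (95% interval -0.13 to 2.71), and the groups did not overlap: the lowest KO marrow mouse lay 0.30 above the highest WT marrow mouse. Cxcl2 differed by -1.37 ± 0.70 (-2.88 to 0.14), also without overlap, but all 6 of its signals were not well above background. Such separation was found for 6.17% of genes upward and 6.57% downward. Neither gene passed after adjustment (limma adjusted p = 0.416 for both). The remaining differences were 0.45 for Cxcl1 (-0.98 to 1.87) and -0.53 for Cxcl3 (-2.46 to 1.39). No gene passed in this comparison (0%), with 2910 at an unadjusted p under 0.05. With slide as a block the interval of Cxcl5 was 0.08 to 3.71 and that of Cxcl2 was -3.26 to -0.64, both with a limma adjusted p of 1. Marrow type and slide were close to confounded here, since the 3 WT marrow mice shared slide 1 with a single KO marrow mouse.

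The treatment effect itself did not differ by marrow past the threshold. The KO minus WT marrow difference of the effect was -1.52 ± 0.93 for Cxcl5 (95% interval -3.53 to 0.49, limma adjusted p = 0.897), the largest in size of the 4. It was 0.24 for Cxcl1 (-1.78 to 2.26), 0.60 for Cxcl2 (-1.53 to 2.74) and 0.38 for Cxcl3 (-2.34 to 3.10). Of all genes 0% passed, with 829 at an unadjusted p under 0.05.

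Among the treated mice, WT marrow mouse 3 of slide 2, the dim array, ranked differently for Cxcl1 and Cxcl5 than for Cxcl2 and Cxcl3. Treated WT marrow mouse 3 was the lowest of the 6 for Cxcl1 and Cxcl5, and treated KO marrow mouse 1 the next lowest for both. The same WT marrow mouse 3 was the highest of the 6 for Cxcl2 and the next highest for Cxcl3, and KO marrow mouse 3 was the highest for Cxcl3 and next for Cxcl2. Over the 6 mice Pearson's r was 0.888 between Cxcl1 and Cxcl5 (exact permutation p = 0.025, adjusted over 6 pairs 0.0833) with Spearman's rho 0.543 (exact permutation p = 0.297, adjusted 0.714). Without the 2 mice farthest from the median of Cxcl1 it was -0.522, so that relation rests on those mice, although the 4 mice of slide 3 gave 0.856. Between Cxcl2 and Cxcl3 r was 0.913 (exact permutation p = 0.0278, adjusted 0.0833) with rho 0.771 (exact permutation p = 0.103, adjusted 0.617), and r was 0.942 without the 2 farthest mice. Those were the mice of slide 2, and the 4 mice of slide 3 gave the same value. Across the pairs r lay between -0.391 for Cxcl1 with Cxcl2 and -0.0936 for Cxcl1 with Cxcl3, with rho between -0.371 and -0.2, exact permutation p-values for r of 0.488 to 0.849 and for rho of 0.497 to 0.714. Over the 4 mice of slide 3 alone, r was positive for these pairs too: 0.424 for Cxcl1 with Cxcl2, 0.305 for Cxcl1 with Cxcl3, 0.755 for Cxcl2 with Cxcl5 and 0.558 for Cxcl3 with Cxcl5. The negative relations across the pairs therefore depend on the 2 treated mice of slide 2. Of these 2, only WT marrow mouse 3, the dim array, lay on opposite sides of the mean of the 6. It was below that mean for Cxcl1 and Cxcl5 (-2.03 and -1.59) and above it for Cxcl2 and Cxcl3 (1.37 and 0.79). KO marrow mouse 3 was above it for Cxcl1, Cxcl5, Cxcl2 and Cxcl3 (0.69, 0.13, 1.1 and 2.12). None of the 6 relations passed after adjustment.

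**Figure D3:**
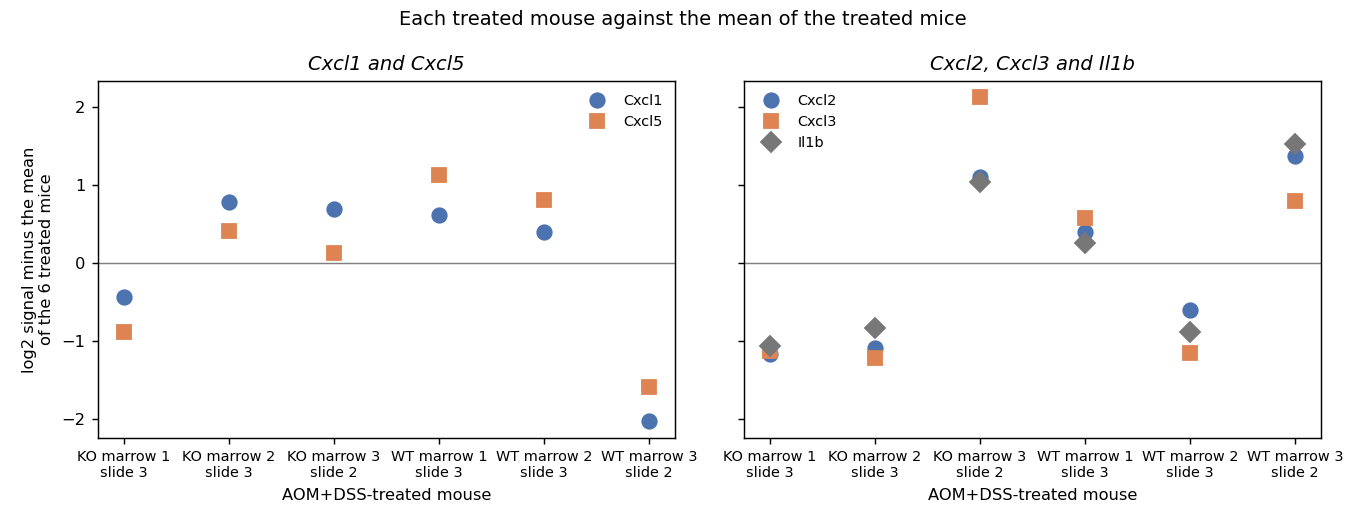
The 6 treated mice, each as its log2 signal minus the mean of the 6 (vertical axis), for Cxcl1 and Cxcl5 (left) and for Cxcl2, Cxcl3 and Il1b (right). WT marrow mouse 3 is lowest on the left at -2.03 for Cxcl1 and -1.59 for Cxcl5, and stands above the mean on the right together with KO marrow mouse 3, the other treated mouse of slide 2.

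The genes whose profile over all 12 arrays was most like each chemokine differed between the pair Cxcl1 and Cxcl5 and the pair Cxcl2 and Cxcl3. The same treated arrays enter here, the dim one included, so this is not separate evidence for the pairs. These correlations over 13387 other genes are a description, because the arrays fall into a treated and an untreated set that any treatment-responsive gene will follow. Cxcl1 was most like Slc28a3, a nucleoside transporter (r = 0.987), then Cxcl5 (0.982), the retinaldehyde dehydrogenase Aldh1a3 (0.970), the growth factor Hgf (0.970) and the pattern receptor Tlr2 (0.967). Cxcl5 was most like Cxcl1 (0.982), Slc28a3 (0.981), Nudcd1 (0.980), the epidermal growth factor family ligand Btc (0.975) and Syt8 (0.974). Cxcl2 was most like the chemokine Ccl3 (0.987), then Cxcl3 (0.982), Il1b (0.980), Zmynd15 (0.978) and the fucosyltransferase Fut2 (0.977). Cxcl3 was most like Ccl3 (0.990), the protein C receptor Procr (0.983), Cxcl2 (0.982), the prostaglandin synthase Ptgs2 (0.980) and the neutrophil collagenase Mmp8 (0.980). By contrast Cxcl2 came 244th among the genes most like Cxcl1 (r = 0.871), and Cxcl3 came 152nd among those most like Cxcl5 (0.902).

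Of the receptors, Cxcr2, through which all 4 chemokines act on neutrophils, measured -5.91, -3.43 and -1.54 in treated KO marrow mice, against -6.57, -6.99 and -7.04 in untreated KO marrow mice. With WT marrow it measured -5.19, -4.33 and -1.70 in treated mice, against -6.10, -5.30 and -6.39 in untreated mice. It was well above background in 5 of 6 treated and 0 of 6 untreated mice, and mouse 3 was the highest treated mouse with either marrow, as for Cxcl2. Averaged over both marrow types the fitted difference was 2.72 ± 0.74 (limma adjusted p = 0.0237). The calculation used for the bounds of Cxcl2 gave 4.46-fold. That is not a bound here, because treated KO marrow mouse 1 (-5.91) was not well above background. Within KO marrow (3.24, limma adjusted p = 0.137) and WT marrow (2.19, limma adjusted p = 0.163) Cxcr2 did not pass. With slide as a block the average was 5.08 (limma adjusted p = 0.00884), and Cxcr2 then passed with KO marrow (5.46, limma adjusted p = 0.00388) but not with WT marrow (4.70, limma adjusted p = 0.101). Cxcr1 was well above background in no treated mouse and in 2 untreated WT marrow mice, and was not tested. Ackr1, the decoy receptor on venules and red cells, averaged -0.32 over both marrow types (limma adjusted p = 0.511).

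Of the cytokines known to induce these chemokines, 5 of 8 could be tested, and 4 of the 5 rose with treatment in each marrow type. Over all genes 1.85% were called higher with KO marrow and 3.61% with WT marrow. Il1a and Il6 passed the filter on dim probes only through treated groups, so the count favours genes that rose. The median change of the 5 cytokines was 3.19 with KO marrow and 2.39 with WT marrow. Il1b, which encodes interleukin-1 beta, measured 1.85, 2.07 and 3.94 in treated KO marrow mice, against -3.70, -5.01 and -5.21 in untreated KO marrow mice. With WT marrow it measured 3.17, 2.04 and 4.44 in treated mice, against -3.76, -3.90 and -4.23 in untreated mice. The mice of slide 2 were again the highest treated mice. The difference was 7.26 ± 0.65 with KO marrow (limma adjusted p = 0.000141) and 7.18 ± 0.65 with WT marrow (limma adjusted p = 0.000184). With KO marrow the differences were 3.19 for Il1a, 2.77 for Tnf and 3.76 for Il6, and with WT marrow they were 3.50, 1.76 and 2.39 in the same order. Their limma adjusted p-values lay between 0.00491 and 0.0496. Il6 was above background in no untreated mouse, so its rise with KO marrow is an approximate bound, at least 5.30-fold. With WT marrow the same calculation gave 3.55-fold, not a bound, because treated WT marrow mouse 3 (-4.43) was not well above background. Il1a with WT marrow was at least 5.37-fold higher. With slide as a block Tnf and Il6 no longer passed with WT marrow (limma adjusted p = 0.101 and 0.163). Il17f, an epithelium-activating interleukin-17, gave -0.08 with KO marrow and -0.77 with WT marrow and did not pass. Il17a and Csf2 were above background in 2 of 3 treated mice of each marrow type and in no untreated mouse, so they were not tested. Csf3 was not tested either. It was above background in 2 treated mice of each marrow type and also in 2 untreated WT marrow mice.

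Of 12 listed genes of the signalling that induces or limits the chemokines, 11 were measured. None passed with KO marrow, and 2 rose with WT marrow: Myd88, the adaptor of interleukin-1 and Toll-like receptors, by 1.04 (limma adjusted p = 0.0243), and Zfp36, which destabilises chemokine transcripts, by 1.27 (limma adjusted p = 0.0239). With slide as a block both lost the call (limma adjusted p = 0.626 and 0.201), and Traf3ip2, an adaptor of interleukin-17 receptors, passed as lower with KO marrow (-1.73, limma adjusted p = 0.0289, against -0.27 without the block). The interleukin-1 receptor Il1r1 gave 0.20 with KO marrow and 0.26 with WT marrow, and the interleukin-17 receptor Il17ra gave -0.24 and 0.38, none past the threshold. The median of the 11 genes was 0.41 with KO marrow and 0.61 with WT marrow.

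**Figure D4:**
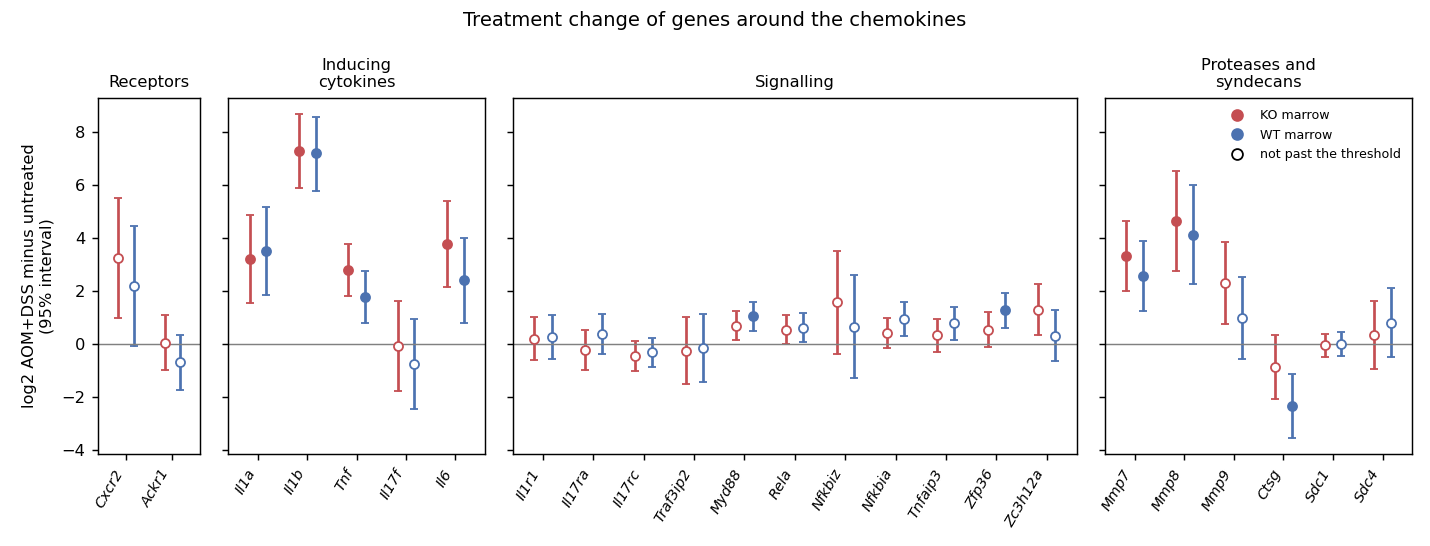
Treatment differences in log2 signal with 95% intervals (vertical axis) of the receptors, inducing cytokines, signalling genes, and proteases and syndecans that were measured, with KO marrow (red) and WT marrow (blue). Filled points passed an adjusted p under 0.05. Il1b stands highest, at 7.26 with KO marrow and 7.18 with WT marrow, and none of the 11 signalling genes passed with KO marrow.

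Among proteases that trim these chemokines and syndecans that hold them, 6 of 8 were measured. Mmp8 was at least 6.34-fold higher with KO marrow and at least 4.62-fold higher with WT marrow (limma adjusted p = 0.0111 and 0.0151). Mmp7, the epithelial matrilysin, rose by 3.32 with KO marrow and 2.55 with WT marrow (limma adjusted p = 0.0106 and 0.0234). Ctsg, cathepsin G, fell by 2.34 with WT marrow (limma adjusted p = 0.0233), but gave 0.08 with slide as a block. Sdc1, whose shed product binds chemokines, gave -0.06 with KO marrow and 0.01 with WT marrow. Under the slide block Mmp8 missed the threshold with WT marrow (limma adjusted p = 0.0581), Mmp7 passed with both, and Mmp9, neutrophil gelatinase, came to pass with KO marrow (3.41, limma adjusted p = 0.0077, against 2.29 without the block).

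Other members of the CXC family rose in part. Of the related genes of the same locus, the platelet factor Pf4 rose by 1.70 with KO marrow and 1.68 with WT marrow (limma adjusted p = 0.0478 and 0.0267), calls that both ended with slide as a block. Ppbp, a platelet chemokine precursor that also yields a Cxcr2 ligand, gave 1.98 with KO marrow and 0.68 with WT marrow without passing. Cxcl15, a lung-type ELR chemokine, gave -1.99 with KO marrow (limma adjusted p = 0.382) and -3.04 with WT marrow (limma adjusted p = 0.0541). Of the 8 listed CXC chemokines without the ELR motif 6 were measured. The interferon-induced Cxcl9 and Cxcl10 rose by 3.85 and 2.81 with KO marrow (limma adjusted p = 0.0218 and 0.0058) and by 3.47 and 3.34 with WT marrow (limma adjusted p = 0.0223 and 0.00288). Cxcl16, a membrane-bound chemokine, rose by 1.64 with KO marrow (limma adjusted p = 0.0242). Cxcl12 gave 0.48 with KO marrow and -0.30 with WT marrow, and Cxcl13 and Cxcl14 did not pass either. With slide as a block Cxcl10 and Cxcl16 passed with KO marrow, and none of the 6 passed with WT marrow. Of the 5 receptors of these chemokines none passed with either marrow alone, and averaged over both Cxcr4 rose by 1.97 (limma adjusted p = 0.0389, or 0.0535 with slide as a block), while Cxcr3 (0.35), Cxcr5 (0.82), Cxcr6 (1.02) and Ackr3 (0.40) did not pass.

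All 4 chemokine genes lie in a cluster on chromosome 5, in the order Cxcl5, Ppbp, Pf4, Cxcl3, Cxcl15, Cxcl1 and Cxcl2. Of the 9 listed flanking genes, 8 were measured, and none had a difference as large in size as any of the 4 chemokines. Rassf6, on the Cxcl5 side, gave -0.20 with KO marrow and 0.45 with WT marrow, and Mthfd2l, on the Cxcl2 side, gave 0.38 and 0.64, none past the threshold. Farther out, Btc rose by 1.56 with WT marrow (limma adjusted p = 0.0189, or 0.174 with slide as a block). With KO marrow Afp rose by 2.75 (limma adjusted p = 0.0268) and Alb fell by 3.11 (limma adjusted p = 0.0337). For Alb, untreated KO marrow mouse 2 stood apart at -0.26, against -3.24 and -3.25 in untreated KO marrow mice 1 and 3. The treated KO marrow mice had -5.80, -5.12 and -5.16, the first not well above background. Epgn passed with KO marrow only with slide as a block (2.51, limma adjusted p = 0.0444, against 1.99 without it). Within the cluster itself, Cxcl15 lies between Cxcl3 and Cxcl1 and had a negative difference with both marrow types, which shrank to -1.25 with KO marrow and -0.54 with WT marrow with slide as a block (limma adjusted p = 0.419 and 0.869).

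**Figure D5:**
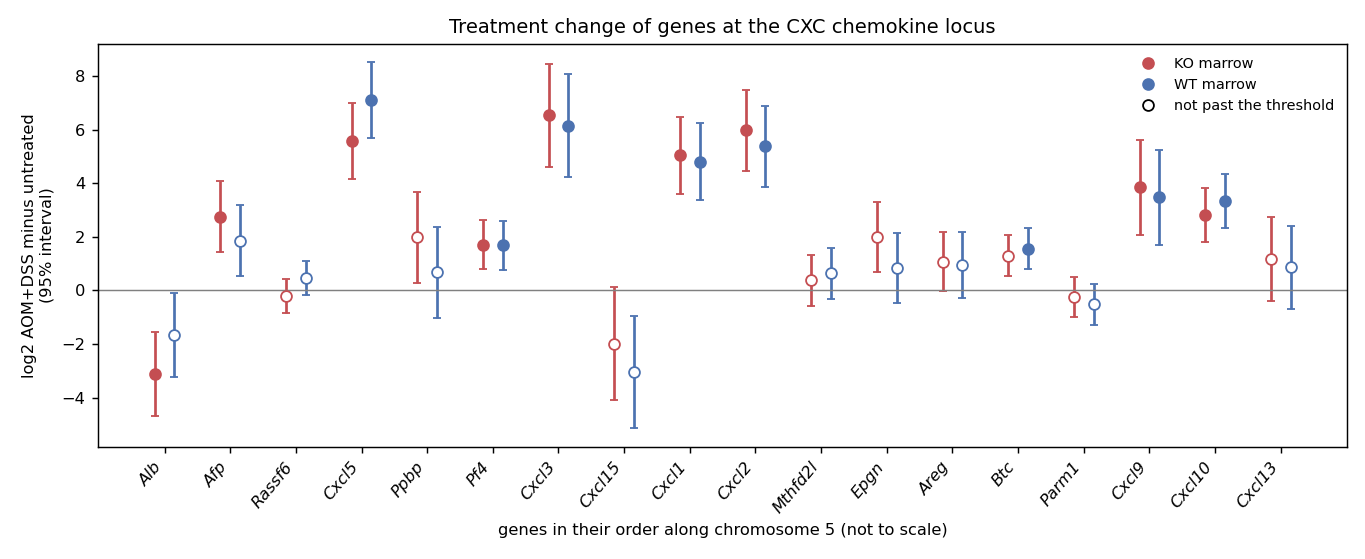
Treatment differences in log2 signal with 95% intervals (vertical axis) of measured genes in their order along chromosome 5, not to scale, with KO marrow (red) and WT marrow (blue). Filled points passed an adjusted p under 0.05. Cxcl5, Cxcl3, Cxcl1 and Cxcl2 stand between 4.80 and 7.09, with Rassf6 and Mthfd2l on either side near 0.

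Markers of the cells that respond to the chemokines also changed with treatment. Of 10 listed neutrophil markers 8 were measured, and 6 of the 8 rose with each marrow type, with medians of 5.42 with KO marrow and 4.76 with WT marrow. Over all genes 1.85% were called higher with KO marrow and 3.61% with WT marrow. S100a8, Retnlg, Csf3r, Mmp8 and Clec4e passed the filter on dim probes only through treated groups, so the count favours genes that rose. The same holds for Msr1 of the macrophage markers and Pdgfra of the fibroblast markers. The summed scaled signal of the 8 neutrophil markers was 11.1 to 54.1 in treated KO marrow mice and 48.9 to 125 in treated WT marrow mice, against 0.202 to 0.487 in untreated KO marrow mice and 0.333 to 0.785 in untreated WT marrow mice. The mouse with the highest sum, treated WT marrow mouse 3 at 125, had the dim array and was the lowest treated mouse for Cxcl1 and Cxcl5. Most of that sum came from 1 marker, S100a9, at a log2 value of 6.8. Of the 8 markers Retnlg, Csf3r and Mmp8 were above background in no untreated mouse, Clec4e in 1, S100a8 in 2, Fpr1 and Trem1 in 5 and S100a9 in all 6. The 2 that did not pass were Fpr1, which gave 1.63 with KO marrow and 0.09 with WT marrow, and Trem1, which gave 1.00 and 0.12 in the same order. Of the 8 monocyte and macrophage markers 5 rose with KO marrow and 6 with WT marrow, and their sum was 48.1 to 65.5 in treated KO marrow mice and 41.7 to 73.7 in treated WT marrow mice, against 10 to 18 in untreated KO marrow mice and 10.4 to 35.8 in untreated WT marrow mice. Of the 5 fibroblast markers, 3 rose with KO marrow (median 3.32) and 2 with WT marrow (median 1.81). Their sum was 2.98 to 13.6 in treated KO marrow mice and 2.97 to 13.8 in treated WT marrow mice, against 0.694 to 1.14 in untreated KO marrow mice and 0.757 to 11.6 in untreated WT marrow mice. None of the 4 smooth muscle markers passed, but treated WT marrow mouse 2 stood apart with a sum of 43.8, against 0.948 to 11.2 in the other 5 treated mice. The 5 measured epithelial markers summed to 413 to 789 in treated KO marrow mice and 394 to 914 in treated WT marrow mice. Untreated mice had 578 to 810 with KO marrow and 531 to 893 with WT marrow, so epithelium was present throughout. The treated mice of slide 3 had sums of 394 to 452, below every untreated mouse. With each marrow type 1 of the 5 markers passed as lower, with medians of -0.37 with KO marrow and -0.52 with WT marrow. Slc26a3 measured 1.84 to 3.69 in treated mice and 5.1 to 5.92 in untreated mice. The part of these cell types in the chemokine changes was not tested. In such bulk tissue a change in the number of cells of a type and a change in RNA per cell cannot be told apart.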

How the data were processed

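Per the file headers, the authors scanned single-colour (Cy3) Agilent arrays and deposited Feature Extraction 10.7.3.1 output, whose background-subtracted processed signals are intensities; they also deposited a table of 2506 probes with log2 group means centred on each probe. That table holds all 4 genes and was not used for tests.

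Here the intensities were put on the log2 scale minus each array's 75th percentile over 43379 spots that were not controls. Outlier-marked spots were left out, and spots were averaged to 41174 probes. A probe was kept if every array of some group had it well above background (30214 probes), with the brightest probe for each of 23744 genes, named through RefSeq accessions (24375 of the 41174 probes had a symbol). limma 3.58.1 in R 4.3.3 was fitted with 4 group means over all 12 arrays (8 residual degrees of freedom), with an intensity trend, Benjamini-Hochberg adjustment over all genes and a threshold of 0.05. The steps were tested on simulated data with independent noise and no slide effects. Changes of 1, 2, 4 and 6 log2 units in treated WT marrow arrays were recovered for 8%, 44%, 82% and 94% of 50 genes each. The files give no mean signal, so the normexp alternative used median signals with an offset of 50. The other alternatives were quantile normalization, no filter, the mean of a gene's probes, outlier spots kept, no intensity trend, slide or replicate number as a block, single slides, each mouse left out, and, chosen after seeing the data, a floor and a replicate block over treated arrays. Same-numbered treated KO and WT marrow mice deviated together (r = 0.418, 0.307 and 0.512), which the data show and no label explains; numbers 1 and 2 were on slide 3 and number 3 on slide 2. Precision is limited by the 3 arrays a group.

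The 4 genes, the gene lists and the markers were chosen with earlier results of these data known. Named genes are the 4 members, Muc1, every receptor, in each list the first 2 genes and up to 4 called genes with the largest change, and the 5 genes most like each member. Cxcl12, Cxcl13, Cxcl14, Il17a, Il17f, Csf2, Csf3, Sdc1, Traf3ip2, Mmp9, Epgn and the marker genes were named after their values were seen.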

Additional observations from a re-analysis of the deposited data

How the results depend on the processing

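Over the 4 genes and 6 comparisons, 500 of 524 recomputed values kept their direction and their side of the threshold, 1 lost its call (Cxcl1 with WT marrow, slide as a block) and 23 changed sign, all in differences that had not passed. The treatment differences were smallest under normexp: 2.82 for Cxcl1, 2.29 for Cxcl2, 2.49 for Cxcl3 and 4.49 for Cxcl5 with KO marrow, and 2.60, 2.29, 2.31 and 4.68 with WT marrow, and all passed. Between treated KO and WT marrow mice, sign changes were 0.13 for Cxcl5 under normexp, 1.33 for Cxcl3 and 1.72 for Cxcl5 within slide 2, and -0.33 for Cxcl1 within slide 3. Leaving out single mice gave -0.16 to 1.16 for Cxcl1, -1.25 to 0.42 for Cxcl3 and -1.08 to 0.28 for Cxcl5. Between untreated mice, Cxcl1 was -0.15 under normexp. For the difference in treatment effect, Cxcl1 was -0.43 under quantile normalization and -0.14 with slide as a block, and Cxcl2 was 0.00 under normexp and -0.55 with signals raised to the floor. Leaving out single mice gave -0.61 to 0.72 for Cxcl1, -0.14 to 1.10 for Cxcl2 and -0.72 to 0.95 for Cxcl3. The cause of these changes was not tested.

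The replicate block, and the same block over the treated mice alone, gave 0 genes between treated KO and WT marrow mice and changed no call of the 4 genes. Counts over all genes moved more: with WT marrow 3278 genes passed, against 855 under normexp, 127 with slide as a block and 483 to 7558 with single mice left out (7558 without the dim array). With KO marrow 749 passed, against 1725 with slide as a block and 253 to 1235. The mean of both gave 4989, against 2377, 1473 and 2778 to 8885. Between untreated mice 0 passed, against 2 under normexp and 1665 without untreated KO marrow mouse 1. Of calls with WT marrow 39.8% were upward under quantile normalization and 87.4% with slide as a block, where the median gene shifted to 0.47. Signals not well above background in untreated mice limit the rises of Cxcl2 and Cxcl3 to approximate bounds.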
